A study of Drosophila melanogaster with 24 samples.

Results

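The RNA recovered by an anti-FLAG immunoprecipitation from fly heads that carry no FLAG-tagged protein was compared with the RNA of the same lysates before immunoprecipitation. The libraries are the 4 control RIP (RNA immunoprecipitation) libraries and the 4 control Input libraries, chosen by their genotype and sample type, 8 of the 24 libraries of the series. RIP and Input libraries of a number come from 1 lysate and were compared within that lysate, over all expressed genes. The series asks which RNAs associate with the RNA-binding proteins Nab2 and Atx2 in neurons of Drosophila melanogaster, and the control shows what is recovered or lost without either tag.

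The control flies carried the neuronal driver elav>Gal4 alone, with no tagged transgene. Elav-driven Gal4 acts in neurons, while whole adult female heads also hold glia, muscle and fat body. The Nab2-FLAG and Atx2-3xFLAG flies, used below for comparison, carried the same driver with a tagged transgene. Each lysate came from 300 heads fixed with formaldehyde, homogenised and cleared of an insoluble fraction. Of the soluble part, 80% went onto anti-FLAG magnetic beads (RIP) and 20% was kept as Input. Per the labels' protocols, RNA of both kinds was column-purified and only RIP RNA was concentrated on SPRI beads. After rRNA depletion the stranded libraries were run as 1 RIP pool and 1 Input pool. Bead recovery, concentration and sequencing pool therefore differ together between RIP and Input and cannot be told apart here.

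In a RIP experiment without an epitope, RNA reaches the sequencer by staying with beads, antibody or tube, free or as part of an RNA-protein complex. Most RNA of a head belongs to a few kinds of complex. Ribosomes translate messenger RNA in the cytosol and, with their own ribosomal RNAs, in mitochondria. Small nucleolar RNAs guide the modification of ribosomal RNA, small nuclear RNAs form the spliceosome, 7SL RNA is the scaffold of the signal recognition particle, and RNase P and RNase MRP process other RNAs.

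Totals ran from 220894 to 1444393 counts in the control RIP libraries and from 665341 to 877212 in the control Input libraries. The shallowest, RIP replicate 3, stood apart on the first principal component of the 8 libraries, at a score of 41.5 against -11.6 to -1.41 for the others. Input replicate 4 stood apart in its small RNA: snoRNAs took 0.454% of its counts, against 0.199% to 0.234% in the other 3 Input libraries. The main small RNA results are given with and without lysate 4. Nab2, the gene of the first transgene, had 95.1 to 162 CPM in Nab2-FLAG Input and 19.3 to 29.1 CPM in control Input, on a scaling over all 24 libraries. Atx2 had 246 to 292 CPM in Atx2-3xFLAG Input and 234 to 287 CPM in control Input on the same scaling, so its ranges overlapped. Markers of the head were present in control Input, with averages of 55713 CPM for the rhodopsin ninaE, 65870 CPM for the yolk protein Yp1, 110 CPM for neuronal elav and 26.6 CPM for glial repo. CPM is the library-size-normalised count after TMM scaling, which sets each library against its typical gene, so every difference below is relative to the other RNAs of a library and not an absolute yield.

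Of 5029 genes tested, 197 were higher and 252 were lower in control RIP than in control Input with adjusted p below 0.05 (quasi-likelihood test of edgeR, lysate as a block, Benjamini-Hochberg), which is 3.92% and 5.01% of all genes, 8.93% in either direction. Most differences were small, with a median absolute log2 difference of 0.53 among the called genes, and 20 of the higher and 31 of the lower genes differed by more than 2-fold. Of those 31, 10 were snoRNAs, 7 were snRNAs or related small nuclear RNAs and 10 were protein-coding. All 4 RIP values lay above all 4 Input values for 228 genes (4.53%) and below them for 260 (5.17%). In 397 of the 449 called genes the sign was the same in all 4 lysates. With 3 lysates many calls were lost: 41 of the 197 higher and 101 of the 252 lower genes stayed called in each of the 4 fits that left out 1 lysate. Without lysate 1 the counts were 90 higher and 143 lower, and without lysate 2 they were 56 and 123. DESeq2 with the same block called 32 higher and 96 lower genes, and limma on log2 ratios per lysate called 0 higher and 6 lower, with 739 genes at an unadjusted p under 0.05 against 1043 in edgeR. Under scaling by library size alone the median log2 difference of all genes was 0.39, and 1711 genes were higher and 46 lower.

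RNA classes took different shares of the 2 kinds of library. Mitochondrial ribosomal RNA took 13.1%, 12.99%, 18.5% and 17.2% of the counts in RIP lysates 1 to 4, against 27.03%, 29.9%, 31.9% and 23.2% in Input. Every RIP share lay below every Input share. Nuclear protein-coding RNA took 77.2% ± 2.81 in RIP and 65.3% ± 3.41 in Input (SD, n = 4), again without overlap. As a share of nuclear-encoded counts alone, however, the protein-coding difference turned to -0.27 percentage points, and that of the 7SL, RNase P and RNase MRP class was 0.319 points (exact permutation test, adjusted p = 0.45), against 0.629 of all counts. Long noncoding RNA took 1.04% ± 0.0935 in RIP and 0.594% ± 0.0678 in Input (SD, n = 4), and 7SL, RNase P and RNase MRP RNA together took 2.598% ± 0.310 in RIP and 1.97% ± 0.104 in Input (SD, n = 4). For these 4 classes and for mitochondrial mRNA the exact permutation test (two-sided, over libraries) gave p = 0.0286, the smallest value 4 against 4 libraries allow, and an adjusted p of 0.0514 over 9 classes, which misses the threshold of 0.05. The share of snoRNA was 0.200% ± 0.0563 in RIP and 0.279% ± 0.117 in Input (SD, n = 4; exact adjusted p = 0.478), with RIP lower in each of the 4 lysates. The snoRNA difference of -0.0788 percentage points was -0.0396 without lysate 4.

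**Figure D1:**
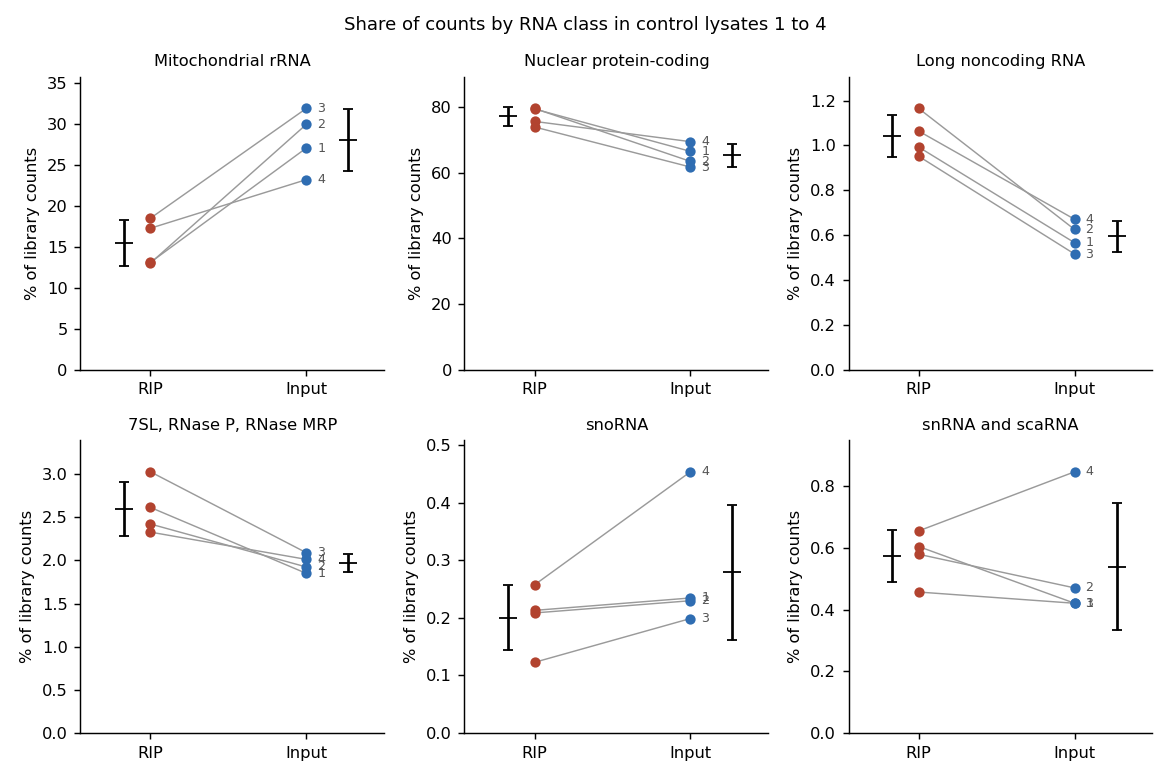
Share of library counts (%) taken by 6 RNA classes in the 4 control lysates, RIP at the left and Input at the right of each panel; grey lines join the libraries of a lysate, numbers name the lysate, and black marks are the mean ± SD. Mitochondrial rRNA is lower in RIP in all 4 lysates (15.4% against 27.99% in Input on average), and Input replicate 4 is the highest point for snoRNA and for snRNA.

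RNAs of the mitochondrial genome were mostly lower. Of its 11 tested genes, 8 were lower in RIP, 1 was higher and 2 were not called, with a median log2 difference of -0.86 against -0.00 for all genes. The small mitochondrial ribosomal RNA mt:srRNA had 24059, 22865, 34947 and 31524 CPM in RIP and 76902, 85608, 95808 and 61002 CPM in Input. No RIP library reached any Input library, and the log2 difference stood at -1.50 ± 0.20 (SE; edgeR adjusted p = 0.0379). Its larger partner mt:lrRNA separated as fully, with 81774 to 145278 CPM in RIP and 175371 to 322133 CPM in Input. Its log2 difference of -1.19 was not called (edgeR adjusted p = 0.0962).

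Among mitochondrial mRNAs, mt:CoIII, a cytochrome c oxidase subunit, had 3219, 3122, 3185 and 3718 CPM in RIP and 6140, 6455, 6550 and 6179 CPM in Input, at a log2 difference of -0.94 ± 0.07 (SE; edgeR adjusted p = 6.37e-21). The groups did not overlap. The other oxidase subunits mt:CoII and mt:CoI differed by -1.10 and -0.48, the ATP synthase subunit mt:ATPase6 by -0.95, mt:Cyt-b of complex III by -0.69, and the complex I subunits mt:ND4 and mt:ND5 by -0.86 and -0.65, all called. These 7 mRNAs and mt:srRNA stayed called in each fit that left out 1 lysate. With library size as the only scaling, mt:CoI and mt:ND5 were not called. The exception was mt:ND1, another complex I subunit, with 269, 247, 429 and 254.01 CPM in RIP and 237, 202, 271 and 209 CPM in Input. It was higher by a log2 of 0.33 (edgeR adjusted p = 0.0165), the groups overlapped, and the shallow RIP replicate 3 was its highest library. The call was lost without lysate 3 (edgeR adjusted p = 0.170) and without lysate 2 (edgeR adjusted p = 0.127). The remaining complex I mRNA tested, mt:ND3, was near the expression limit, at 9.56 ± 3.45 CPM in RIP and 9.72 ± 2.99 CPM in Input (SD, n = 4), and was not called.

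Small structural RNAs held the lowest differences of the whole comparison. The 47 tested here were 27 snoRNAs, 16 snRNAs and scaRNAs (the small RNAs of Cajal bodies), and 4 RNAs of the 7SL, RNase P and RNase MRP class. Of these, 21 were lower in RIP, 5 were higher and 21 were not called, with a median of -0.96, and by library size alone 18 were lower and 11 higher, with a median of -0.57. Of the 27 snoRNAs 13 were lower and 0 higher, but 3 were higher by library size alone. Without lysate 4, whose Input was rich in small RNA, 44 were tested, 17 were lower, 5 were higher and the median was -0.59. Without lysate 3 the counts were 20 lower and 5 higher.

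The snoRNA snoRNA:Or-CD2 (FBgn0086603, 2R:9097030-9097169, Release 6 assembly, within the spans of CG8078 and the snoRNA host gene Uhg4), named as an orphan, had 49.4, 31.4, 13.3 and 46.1 CPM in RIP and 220, 183, 149.3 and 328 CPM in Input. Every RIP library was far below every Input library, at a log2 difference of -2.58 ± 0.14 (SE; edgeR adjusted p = 1.01e-27). Similarly, snoRNA:SC35-a (FBgn0263468, 2L:12432798-12432950) had 13.6, 14.3, 13.3 and 33.9 CPM in RIP and 115, 107, 158 and 143 CPM in Input, at a log2 difference of -2.62 (edgeR adjusted p = 5.55e-21). It lies inside the splicing factor gene SC35, whose own RNA had 15.1 ± 2.64 CPM in RIP and 13.04 ± 3.76 CPM in Input (SD, n = 4) and was not called. The H/ACA snoRNA snoRNA:Psi18S-110, which guides pseudouridylation of 18S ribosomal RNA by its name, had 18.4, 22.8, 8.84 and 24.9 CPM in RIP and 59.2, 106, 48.6 and 123 CPM in Input, at a log2 difference of -2.13 (edgeR adjusted p = 2.83e-14). All 3 stayed called without any 1 lysate. By family, 9 of 20 H/ACA snoRNAs, 2 of 2 C/D snoRNAs and 2 of 5 others were lower. Without lysate 4, 8 of 18 H/ACA snoRNAs were lower and 1 higher, with a median of -0.33 against -0.90 with all lysates. One of the C/D pair, snoRNA:U3:9B, a copy of the U3 RNA of pre-ribosome processing, was lost without lysate 4 (log2 -0.97).

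Small nuclear RNAs went both ways. Of the 16 snRNAs and related RNAs, 8 were lower and 3 were higher in RIP. The lower ones included the U5 copies snRNA:U5:34A at a log2 difference of -3.31, snRNA:U5:23D at -2.40 and snRNA:U5:14B at -1.97, the U4 copies snRNA:U4:38AB at -1.92 and snRNA:U4:39B at -1.35, and the U1 copy snRNA:U1:95Cc at -1.87. For snRNA:U5:34A the RIP libraries had 2.90, 2.14, 4.42 and 11.5 CPM and the Input libraries 23.2, 23.7, 27.8 and 126 CPM. Its raw counts were 3, 3, 1 and 19 in RIP and 18, 17, 16 and 82 in Input. Input replicate 4 was its highest library by far, the groups did not overlap, and it stayed called without lysate 4. With so few RIP counts, snRNA:U5:34A could pass the expression filter through Input alone. That filter favours such a difference, so its size and separation are not support. The copies of U1, U4 and U5 are near-identical in sequence, so the division of reads among them is uncertain. Also lower was snRNA:U4atac of the minor spliceosome, which removes a rare class of introns, at -0.83 (edgeR adjusted p = 0.00791). snRNA:U4atac was not called without lysate 2 or lysate 4. The 3 higher ones were snRNA:7SK, snRNA:U11 and snRNA:U12. snRNA:7SK, which holds back the transcription elongation factor P-TEFb, had 3203, 3071, 3375 and 3678 CPM in RIP and 2060, 2076, 2463 and 1550 CPM in Input, without overlap, at a log2 difference of 0.73 (edgeR adjusted p = 0.000594). snRNA:U11 and snRNA:U12, also of the minor spliceosome, were higher by 0.75 (edgeR adjusted p = 0.000164) and 1.05 (edgeR adjusted p = 0.0422). U11 stayed called without any 1 lysate, whereas U12 was lost without lysate 1 (edgeR adjusted p = 0.204) or lysate 2 (edgeR adjusted p = 0.247) and failed the expression filter without lysate 4.

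The 2 annotated copies of 7SL RNA were the noncoding RNAs most enriched in RIP. 7SLRNA:CR32864 (FBgn0000003, 3R:6822500-6822798) had 438, 396, 548 and 344 CPM in RIP and 127, 128, 181 and 193 CPM in Input, at a log2 difference of 1.44 ± 0.11 (SE; edgeR adjusted p = 2.03e-12). 7SLRNA:CR42652 had 437, 402, 499.2 and 335 CPM in RIP and 129, 176, 191 and 148.7 CPM in Input, at a log2 difference of 1.37 (edgeR adjusted p = 3.34e-20). In both, every RIP library lay above every Input library. Reads may be shared between the copies, and their sum was not fitted. By contrast Srp68, which encodes a protein of the same particle, had 14.9 ± 5.88 CPM in RIP and 31.6 ± 8.44 CPM in Input (SD, n = 4), at a log2 difference of -1.02 (edgeR adjusted p = 0.00985). The call was lost without lysate 1 (edgeR adjusted p = 0.188) or lysate 2 (edgeR adjusted p = 0.0848). RNaseMRP:RNA had 18722 ± 3980 CPM in RIP and 19371 ± 2624 CPM in Input (SD, n = 4), and RNaseP:RNA had 3268 ± 473 CPM in RIP and 3041 ± 552 CPM in Input (SD, n = 4). Neither was called, at log2 differences of -0.06 and 0.11.

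The small RNAs that were lower were mostly shorter than those that were higher. The length classes were chosen after the values had been seen and carry no test. Of 24 small RNAs under 150 bases, 16 were lower and 0 higher, with a median log2 difference of -1.29. Of 10 from 150 to under 200 bases, 4 were lower and 0 higher (median -0.79), and of 4 from 200 to under 250 bases, 1 was lower and 1 higher (median -0.57). Of the 9 of 250 bases or more, 0 were lower and 4 higher, with a median of 0.73. Without lysate 4 the shortest class had 14 lower and 1 higher, snoRNA:Psi28S-2622, which had 24.2, 24.95, 22.1 and 30.9 CPM in RIP and 9.01, 12.5, 6.94 and 76.7 CPM in Input. With all lysates it was not called, and Input replicate 4 was its highest library. By library size alone 15 were lower and 1 higher in the shortest class, and 0 lower and 7 higher in the longest. Across the 47 RNAs, which share libraries and include near-identical copies, Spearman's rho between length and log2 difference was 0.647. Without lysate 4 the 4 medians were -1.20, -0.64, -0.68 and 0.56, and without lysate 3 they were -1.29, -0.67, -0.48 and 0.73. The annotated lengths are gene spans, and no fragment lengths were analysed here.

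**Figure D2:**
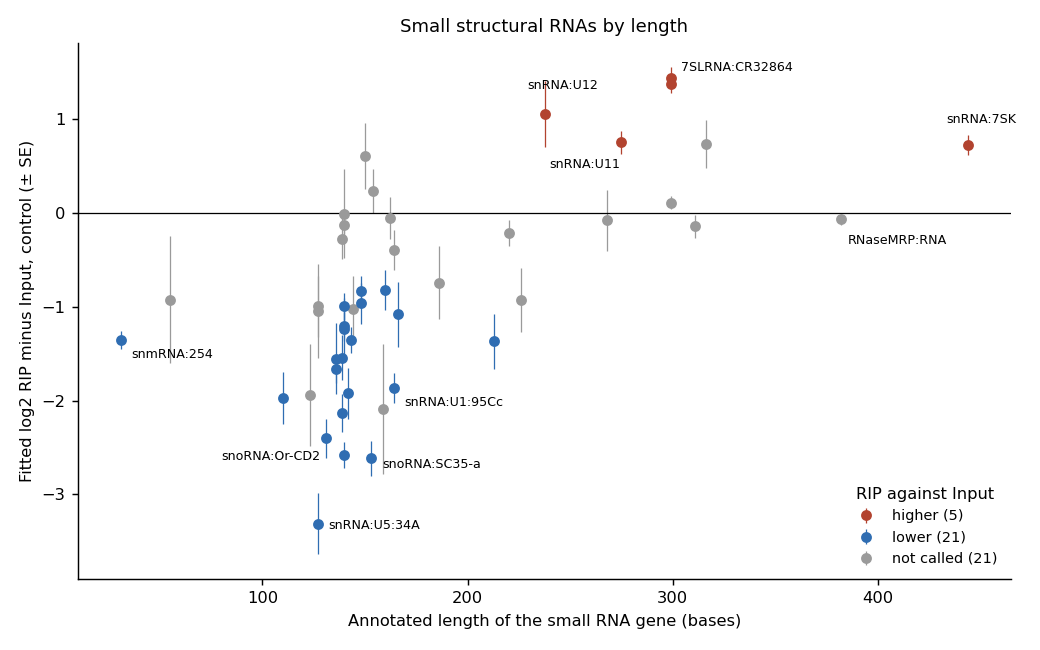
Fitted log2 difference, control RIP minus Input (y axis, bars ± SE), of the 47 small structural RNAs against annotated length in bases (x axis), coloured by call. The 21 lower RNAs are all under 250 bases and 4 of the 5 higher ones are 250 bases or longer.

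Many of these small RNAs lie inside another gene, and a read of the host could be counted for either. Host here means any gene whose span holds that of the small RNA, on either strand, such as Baldspot for snRNA:U12. A host in this sense need not be the source of the small RNA. Of the 47, 32 had an enclosing gene that was itself tested (25 host genes), and 25 of the 32 had a lower log2 difference than the host. Their median was -0.996, against -0.01 for the hosts. Of the 15 lower small RNAs with a tested host, 6 lay in a host that was lower as well. None of the 319 tRNA genes of the tables and none of the 7 snoRNA host genes of the Uhg type passed the expression filter.

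Of 14 long noncoding RNAs tested, 5 were higher in RIP, 0 were lower and 9 were not called, 35.7% higher against 3.92% of all genes, with a median log2 difference of 0.47. lncRNA:CR31451 had 399, 495, 243 and 457 CPM in RIP and 185, 248, 172 and 173 CPM in Input. The groups overlapped through RIP replicate 3, and the log2 difference stood at 1.06 ± 0.10 (SE; edgeR adjusted p = 2.96e-14). lncRNA:noe, abundant in heads, had 4821, 5754, 6676 and 5216 CPM in RIP and 3483, 4249, 4246 and 3718 CPM in Input, without overlap, at a log2 difference of 0.51 (edgeR adjusted p = 2.08e-09). The others were lncRNA:CR31781 at 1.19, lncRNA:CR43459 at 0.62 and lncRNA:Hsromega, a nuclear stress-responsive RNA, at 0.44. All but lncRNA:CR43459 stayed called without any 1 lysate. That one was lost without lysate 2 (edgeR adjusted p = 0.159) or lysate 4 (edgeR adjusted p = 0.139). lncRNA:CR34335, not called with all lysates (log2 -0.22, edgeR adjusted p = 0.0569), was lower without lysate 3 or without lysate 4. With library size as the only scaling 9 of the 14 were higher and 0 lower.

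Of 9 nuclear ribosomal RNA loci tested, all annotated as pseudogenes, 4 were lower and 0 higher, and 3 were lower and 0 higher by library size alone. The lowest was 28SrRNA-Psi:CR45848, at 28.5 ± 5.82 CPM in RIP and 162 ± 106 CPM in Input (SD, n = 4) with a log2 difference of -2.50 (edgeR adjusted p = 5.74e-15). These loci are near-identical repeats of ribosomal RNA that the library kit depletes, so their reads cannot be assigned with certainty. The antisense RNA asRNA:CR45046 was higher by 0.82 (edgeR adjusted p = 0.0433), a call lost without lysate 1, 2 or 4. It overlaps the fat body gene fit, which was lower, at -0.89, and whether reads were counted by strand is not given in the sources used here.

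Among called protein-coding genes with a mean of at least 20 CPM over the 8 libraries and the same sign in every lysate, the 12 highest were CG15803, VGAT, su(w[a]), nAChRalpha7, Nmdar2, CG4341, Nlg4, D1, Ing3, Mid1, CG43373 and HERC2, at log2 differences from 0.94 to 1.45. The other 11 were low in Input, averaging 10.6 to 30.3 CPM, against 183 CPM for HERC2. A gene can pass the expression filter through RIP alone, which favours large positive differences among genes low in Input. HERC2, which encodes a large ubiquitin ligase, had 395, 377, 331 and 292 CPM in RIP and 200, 173, 191 and 170 CPM in Input. No libraries overlapped, and the log2 difference stood at 0.94 ± 0.10 (SE; edgeR adjusted p = 1.10e-12). It was the only one of the 12 that stayed called in each fit that left out 1 lysate. VGAT, the vesicular GABA transporter, had 30.99, 29.2, 39.8 and 21.8 CPM in RIP and 7.72, 13.9, 19.1 and 13.8 CPM in Input, again without overlap, at a log2 difference of 1.17 (edgeR adjusted p = 0.00661). Its call was lost without lysate 1 (edgeR adjusted p = 0.143) or lysate 2 (edgeR adjusted p = 0.0693). For su(w[a]), a splicing regulator, lysate 2 stood at a log2 ratio of 2.19 against 0.70 to 0.85 in the others, and the call was lost without it (log2 0.86, edgeR adjusted p = 0.112). The receptor subunit genes nAChRalpha7 (acetylcholine) and Nmdar2 (glutamate) were higher by 1.01 and 0.98 and lost their calls in 2 of the 4 fits each.

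**Figure D3:**
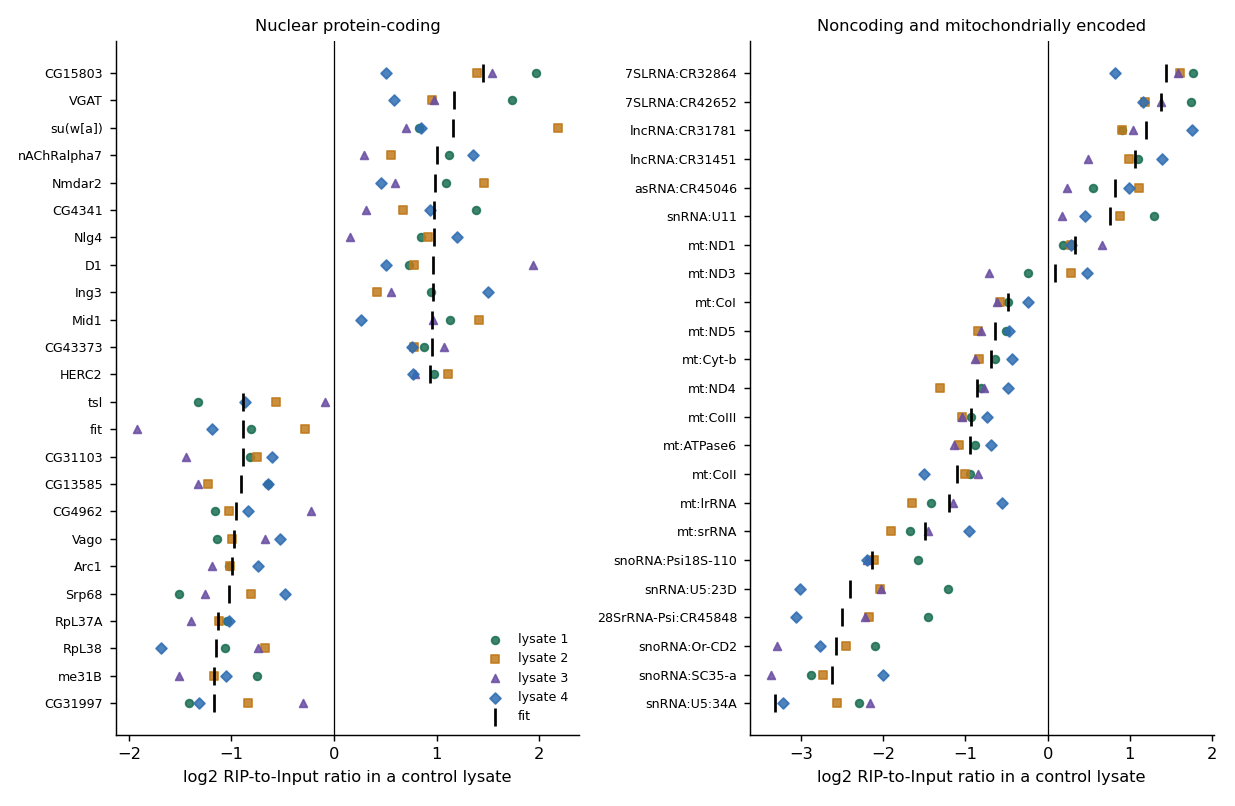
Log2 RIP-to-Input ratio (x axis) of each control lysate, by marker shape, with the fitted difference as a black bar, for 24 protein-coding genes (left) and 23 noncoding or mitochondrially encoded genes (right). Lysates of HERC2 and RpL37A lie close together, while su(w[a]) has lysate 2 far above the rest.

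By the same rule the 12 lowest protein-coding genes were CG31997, me31B, RpL38, RpL37A, Srp68, Arc1, Vago, CG4962, CG13585, CG31103, fit and tsl, at log2 differences from -1.17 to -0.89. Arc1, whose protein forms capsids that carry its own mRNA between neurons and muscle, had 253, 276, 283 and 135 CPM in RIP and 517, 559, 646 and 227 CPM in Input. RIP was lower in every lysate but the ranges overlapped through lysate 4, in which both libraries were low, and the log2 difference stood at -0.99 ± 0.09 (SE; edgeR adjusted p = 7.56e-15). me31B, an RNA helicase of cytoplasmic ribonucleoprotein granules, had 13.6, 14.3, 8.84 and 12.1 CPM in RIP and 24.5, 34.8, 29.5 and 27.6 CPM in Input, with no overlap (log2 -1.17, edgeR adjusted p = 0.00520). Its call was lost without lysate 2 (edgeR adjusted p = 0.0968). The antiviral gene Vago and the torso pathway gene tsl were lower, at -0.97 and -0.89. Vago was lost without lysate 1 or 2, tsl and CG31997 without lysate 1, CG4962 without lysate 1 or 2, and CG31103 was not called in any of the 4 fits.

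Cytosolic ribosomal protein mRNAs were the largest group of lower genes. Of 82 tested, 37 were lower and 4 higher, 45.1% and 4.88% against 5.01% and 3.92% of all genes, and the median was -0.14. RpL37A (FBgn0261608, 2L:5070957-5072055) had 814, 813, 738 and 899 CPM in RIP and 1682, 1770, 1949 and 1837 CPM in Input, a full separation, at a log2 difference of -1.14 ± 0.07 (SE; edgeR adjusted p = 1.08e-22). RpL38 had 69.7, 101, 75.1 and 87.3 CPM in RIP and 148, 162, 127 and 287 CPM in Input, at -1.15 (edgeR adjusted p = 2.65e-09). RpL39, RpL15 and RpS26 followed at -0.85, -0.83 and -0.69. The family was not uniform, since 41 members were not called and the higher ones included RpL24-like, RpL22 and RpL34b, at 0.74, 0.43 and 0.28. Under scaling by library size alone the family's direction flipped to 42 higher and 7 lower, while its median stayed 0.12 below that of all genes. Of the 37 lower genes, 25 stayed called without any 1 lysate.

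Translation factors gave 6 lower and 0 higher of 39 tested, 15.4% lower against 5.01% of all genes, with a median of -0.16, but 11 higher and 1 lower under library size scaling. The 6 included both main elongation factors. eEF1alpha1, which brings aminoacyl-tRNA to the ribosome, had 24732, 22893, 30811 and 24762 CPM in RIP and 41972, 41614, 49740 and 37123 CPM in Input, without overlap, at a log2 difference of -0.73 (edgeR adjusted p = 7.32e-17). eEF2, which moves the ribosome along the mRNA, had 4979 ± 348 CPM in RIP and 6594 ± 797 CPM in Input (SD, n = 4), at -0.40. The initiation factors eIF3e, eIF3l, eIF3b and eIF4A were lower, at -0.46 to -0.22. The list had 3 lower genes without lysate 2. Nuclear-encoded subunits of oxidative phosphorylation did not move together. Of 61 tested, 3 were higher and 6 were lower, 4.92% and 9.84% against 3.92% and 5.01% of all genes, with a median of -0.04, but by library size alone 22 were higher and 0 lower. Without lysate 1, and likewise without lysate 2, 1 was higher and 2 were lower. UQCR-C2 of complex III was higher by 0.45 and Cyt-c-p, cytochrome c, lower, at -0.50.

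Photoreceptor genes were often lower. Of 32 opsin and phototransduction genes tested, 15 were lower and 0 higher, 46.9% against 5.01% of all genes, with a median of -0.27, but 5 were higher and 2 lower under library size scaling. ninaE, the main rhodopsin, had 37167, 33814, 43858 and 34566 CPM in RIP and 60327, 55533, 63718 and 43276 CPM in Input. The ranges overlapped through RIP replicate 3, and the log2 difference stood at -0.57 ± 0.06 (SE; edgeR adjusted p = 5.32e-12). chp, a photoreceptor adhesion protein, was lower, at -0.72, as were ninaB, the enzyme of chromophore synthesis, at -0.75, the arrestin Arr2 at -0.41 and the phospholipase norpA at -0.39. Without lysate 2 the list had 9 lower genes, and ninaB was not among them (edgeR adjusted p = 0.195). RIP and Input of a lysate came from the same heads. Fat body and yolk genes gave 6 lower and 0 higher of 13 (46.2% lower against 5.01% of all genes, median -0.30), and 5 higher and 0 lower under library size scaling. They were led by the female-biased fit at -0.89, the blood-cell gene Hml at -0.60 and the lipoprotein apolpp at -0.46. fit was lost without lysate 4 (edgeR adjusted p = 0.117).

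Several neuronal lists leaned the other way by edgeR, though DESeq2 called few of their genes. Of 31 neuron markers tested, 8 were higher and 3 lower, 25.8% and 9.68% against 3.92% and 5.01% of all genes, with a median of 0.18. DESeq2 with the same block called 1 higher and 2 lower. VGlut, the vesicular glutamate transporter, had 230, 242, 186 and 240 CPM in RIP and 136, 153, 118 and 181 CPM in Input, without overlap, at a log2 difference of 0.61 (edgeR adjusted p = 1.36e-05). With VGAT, the RNA-binding protein gene fne, the synaptic genes Syn, brp and Rim and the channels para and Sh were higher by 0.33 to 1.17. The lower ones were the ELAV family gene Rbp9 at -0.49, the synaptic vesicle chaperone Csp at -0.49 and complexin, cpx, at -0.29, and under library size scaling none of the 3 was lower. VGlut alone of the 8 stayed called in each fit that left out 1 lysate, and the list had 1 higher gene without lysate 1 and 2 without lysate 2. elav itself had 131 ± 11.1 CPM in RIP and 110 ± 17.8 CPM in Input (SD, n = 4) and was not called.

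Ion channels gave 6 higher and 2 lower of 22, 27.3% and 9.09% against 3.92% and 5.01% of all genes, with a median of 0.18, and 14 higher and 0 lower by library size alone. DESeq2 with the same block called 1 higher and 0 lower. In edgeR 3 of the 6 higher ones stayed called in each fit that left out 1 lysate. The potassium channel Shab had 103.6, 108, 66.3 and 119 CPM in RIP and 57.9, 64.1, 57.3 and 70.5 CPM in Input, at a log2 difference of 0.71 (edgeR adjusted p = 0.000479) with only RIP replicate 3 inside the Input range. NaCP60E and unc80 were each higher by 0.57, and the potassium channels Irk2 and SK were lower, at -0.65 and -0.37. Axon guidance and adhesion genes gave 4 higher and 0 lower of 36, 11.1% higher against 3.92% of all genes, with 30 fitted above 0 and a median of 0.23, and 21 higher and 0 lower by library size alone. pk, a planar polarity gene, had 21.3, 13.5, 35.3 and 26.7 CPM in RIP and 6.44, 6.97, 8.68 and 3.07 CPM in Input, without overlap, the largest difference of any called protein-coding gene, at 1.88 ± 0.40 (SE; edgeR adjusted p = 0.000481). With so few Input counts, pk could pass the expression filter through RIP alone. That filter favours such a difference, so its rank and separation are not support. Nlg4, Dscam4 and Dscam2 were higher by 0.97, 0.60 and 0.48. The axon guidance and adhesion list had 2 higher genes without lysate 1 and 1 without lysate 2. DESeq2 with the same block called 0 higher and 0 lower.

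Other tissues gave few calls in number, though some of their shares lay above those of all genes (3.92% higher and 5.01% lower). The glial transcription factor gene repo had 47.4, 45.6, 66.3 and 47.9 CPM in RIP and 24.5, 25.1, 27.8 and 29.1 CPM in Input, without overlap (log2 0.91, edgeR adjusted p = 0.00383). Of 18 genes listed as glial (8 higher and 0 lower by library size alone) it was 1 of 2 higher (11.1%), with Nckx30C at 0.41. Whether Nckx30C is particular to glia was not examined here. The GABA transporter Gat was the 1 lower (5.56%), at -0.77, and was lost without lysate 1, 2 or 4. Of 22 muscle genes 2 were higher (9.09%) and 0 lower, myosin heavy chain Mhc at 0.50 and the troponin gene up at 0.39, the second lost without lysate 1, 2 or 3. By library size alone 14 muscle genes were higher and 0 lower. DESeq2 with the same block called 0 glial genes, and 1 muscle gene higher and 0 lower. By edgeR and by DESeq2, 0 genes were called among 27 proteasome, 18 microtubule, 12 circadian clock, 9 neuropeptide, 8 mitochondrial ribosomal protein and 7 cuticle genes. At an unadjusted p under 0.05 in edgeR the counts in that order were 2, 0, 1, 1, 2 and 2. By library size alone 3, 8, 9, 4, 0 and 0 of them were higher and 0 lower. The proteasome list, had a median of -0.19, which was 0.20 by library size alone. Cytoplasmic ribonucleoprotein genes had 2 lower of 18 (11.1% against 5.01% of all genes), me31B and the Argonaute gene AGO2 (-0.50), but 9 higher and 1 lower by library size alone. Neither me31B nor AGO2 was called without lysate 2, and DESeq2 with the same block called 0 genes of that list. Nuclear mRNA processing genes had 1 higher of 21, the splicing regulator heph (0.52), which at 4.76% is near the 3.92% of all genes, and 13 higher by library size alone. The heph call was lost without lysate 1, and DESeq2 with the same block called 0 genes of that list. Of 4 histone genes tested, the replication-independent His3.3B was higher by 0.61 and His4r lower, at -0.54. The His4r call was lost without lysate 1, 2 or 3, and DESeq2 with the same block called 1 histone gene higher and 0 lower.

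**Figure D4:**
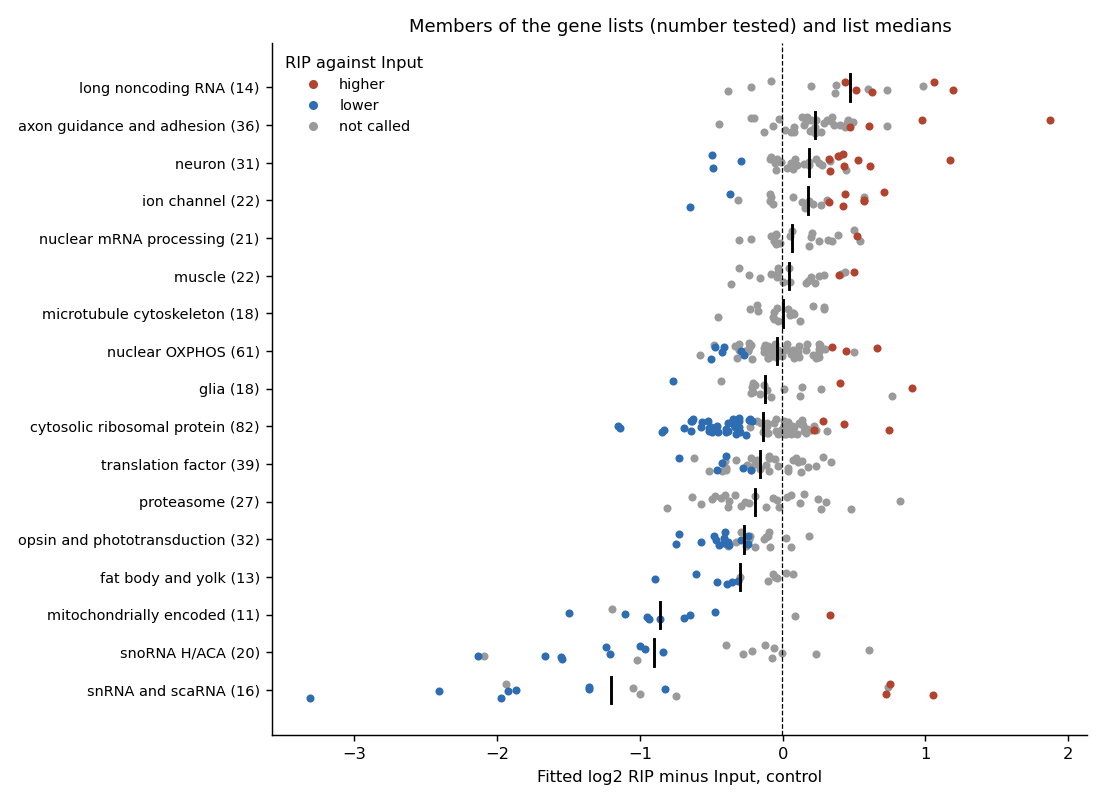
Fitted log2 difference, control RIP minus Input (x axis), of every tested member of 17 gene lists, coloured by call, with the list median as a black bar and the median of all genes as a dashed line. Ribosomal protein, photoreceptor, fat body and mitochondrially encoded lists lie mostly left of the line, and the long noncoding and neuronal lists mostly right of it. By library size alone the medians of the ribosomal protein, photoreceptor and fat body lists are above 0.

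The extent of a gene in the genome went with its recovery. The 4923 nuclear protein-coding genes tested were divided into quintiles by gene span in RefSeq, introns included, as a description with no test. From the shortest to the longest quintile the median log2 difference was -0.11, -0.06, -0.02, 0.02 and 0.15. In the shortest quintile, up to 2191 bases, 1.02% of genes were higher and 8.73% lower. In the longest, from 15537 bases, 10.7% were higher and 1.93% lower. The genes called higher had a median span of 21396 bases, those called lower 2797.5 and those not called 4888. Spans over 20 kb were found in 97 of the 183 higher genes (53.0%), against 12 of the 218 lower ones (5.50%). Spearman's rho across genes was 0.259 with span, 0.129 with the number of RefSeq transcripts and -0.164 with the mean Input CPM. Input CPM is itself the lower term of the log2 difference, and a gene low in Input can pass the expression filter through RIP alone. The rho with Input CPM is therefore partly fixed in advance.

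Level moved with span as well, with a median Input level of 26.7 CPM in the shortest and 61.1 CPM in the longest quintile, and calls were more frequent in abundant genes. Within each quintile of Input level the longest genes lay above the shortest, with medians of 0.37 and 0.03 at the lowest level and 0.07 and -0.13 at the highest. Because Input level enters the log2 difference, medians at different levels cannot be compared as a result about level. The 81 cytosolic ribosomal protein genes among them are short, with a median span of 1387 bases. After they were left out, an alternative chosen after seeing the data, the medians from shortest to longest were -0.11, -0.06, -0.02, 0.02 and 0.15, and 5.68% of the shortest quintile were lower. The neuron, ion channel and adhesion lists had median spans of 17718, 30101.5 and 40274 bases, against 4976 for all tested protein-coding genes. The part of gene span, transcript length or level in the list differences was not tested. Without lysate 3 the medians by span ran from -0.11 to 0.13.

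**Figure D5:**
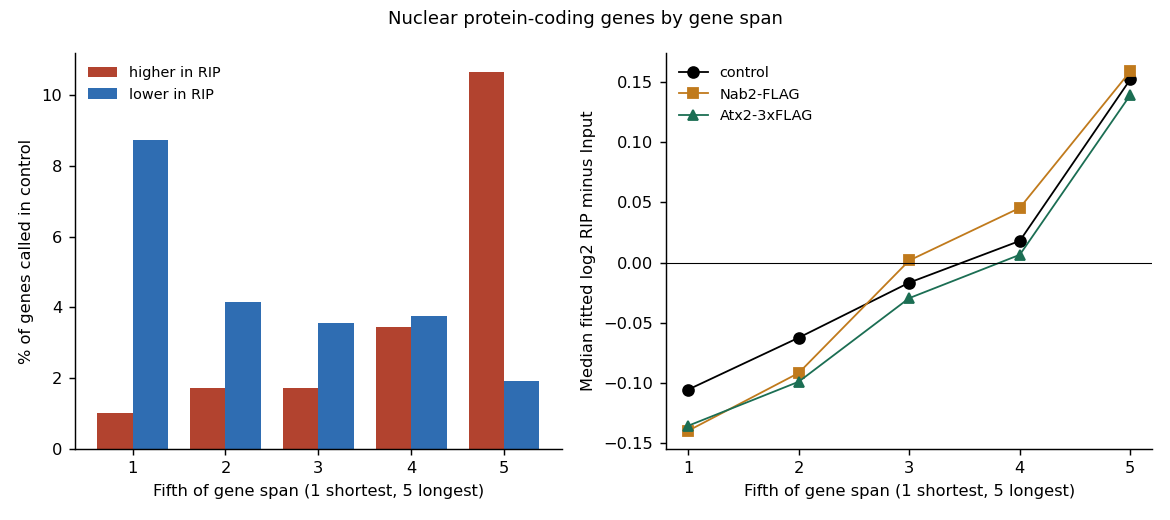
Nuclear protein-coding genes by quintile of gene span, shortest at the left: percent of genes called higher and lower in control RIP (left) and median fitted log2 RIP minus Input in control, Nab2-FLAG and Atx2-3xFLAG (right). The share called higher is 1.02% in the shortest and 10.7% in the longest quintile, and the median of the longest quintile lies between 0.14 and 0.16 in the 3 genotypes.

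By chromosome, 59 of 903 X-linked protein-coding genes were higher and 31 lower, with a median of 0.07, against 183 higher and 218 lower of all 4923, and the 5 other chromosomes or arms had medians between -0.12 and 0.02. On the small chromosome 4, 0 of 68 genes were higher and 9 lower, among them apolpp and Gat. These counts are descriptions without a test.

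The same contrast within each tagged genotype, which shares no library with the control, showed how much of the pattern recurred. Nab2-FLAG RIP against its Input gave 262 higher (4.73%) and 276 lower genes (4.98%) of 5544, 9.7% in either direction. For Atx2-3xFLAG 226 genes were higher (3.95%) and 252 lower (4.4%) of 5724, 8.35% in either direction, all by the edgeR test. Of 4896 genes tested in all 3 genotypes, 194 were higher in the control. Of these, 95 (48.97%) were also higher in Nab2-FLAG and 94 (48.5%) in Atx2-3xFLAG, which is 37.1% and 43.5% of the higher genes of those genotypes. Of 251 lower in the control, 122 (48.6%) were lower in Nab2-FLAG and 134 (53.4%) in Atx2-3xFLAG, or 44.7% and 54.9% of their lower genes. In the opposite direction 1 gene was called in Nab2-FLAG and 0 in Atx2-3xFLAG. Across genes, which are not replicates, the control differences correlated with those of Nab2-FLAG at r = 0.476 and of Atx2-3xFLAG at r = 0.552.

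The 7SL RNAs, RpL37A, ninaE and mt:CoIII were called in the same direction in all 3 genotypes. 7SLRNA:CR32864 was higher by 1.44 in control flies, against 1.35 in Nab2-FLAG and 1.19 in Atx2-3xFLAG flies. For mt:CoIII the differences were -0.94, -0.67 and -0.75, and for ninaE -0.57, -0.67 and -0.57. The control had 37 lower ribosomal protein genes, against 35 for Nab2-FLAG and 30 for Atx2-3xFLAG. For the photoreceptor list the counts in that order were 15, 20 and 17. The neuron list had 8 higher genes in the control flies, against 15 for Nab2-FLAG and 11 for Atx2-3xFLAG. The H/ACA snoRNAs differed in count. Of 20 tested, the control had 0 higher with 9 lower, Nab2-FLAG had 7 higher with 2 lower, and Atx2-3xFLAG had 0 higher with 2 lower. In the under-150-base class the control median was -1.29, against 0.09 for Nab2-FLAG and -0.45 for Atx2-3xFLAG. Differences between counts and medians of lists were not tested.

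A test of the difference itself, the control RIP-to-Input log2 difference minus the mean of those in the tagged genotypes, called 2 genes higher and 9 lower of 6147 (0.0325% and 0.146%; edgeR quasi-likelihood), with 443 at an unadjusted p under 0.05. Of the 9 lower, 5 were snoRNAs. snoRNA:Or-CD2 had log2 ratios of -2.13, -2.50, -3.37 and -2.77 in control lysates, against -1.72 to -0.42 in Nab2-FLAG and -1.20 to -0.59 in Atx2-3xFLAG. No control lysate overlapped a tagged one, and the fitted value was -1.76 ± 0.20 (SE; edgeR adjusted p = 8.65e-06). snoRNA:Psi18S-1086, snoRNA:Or-aca5, snoRNA:Psi18S-110 and snoRNA:Psi18S-1854b differed by -1.36, -1.29, -1.29 and -1.07. Control and tagged lysates overlapped for snoRNA:Psi18S-1086 and snoRNA:Or-aca5 but not for snoRNA:Psi18S-110 and snoRNA:Psi18S-1854b. The others were CG31221 at -0.70, CG42540 at -0.53, RpL37A at -0.39 and apolpp at -0.34. Higher in control were UQCR-C2 at 0.52 and the chitinase-like growth factor gene Idgf4 at 0.48. Among these protein-coding genes CG42540, RpL37A and UQCR-C2 overlapped between control and tagged lysates, while CG31221, apolpp and Idgf4 did not. Without control lysate 1, 2 or 3 this test called 1, 0 and 0 genes higher and 4, 5 and 4 lower. With no lysate block the counts were 0 and 1.

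In the control, where neither tagged protein was present, the mRNAs of the studied proteins were not called. Nab2 had 35.3 ± 12.997 CPM in RIP and 22.1 ± 4.16 CPM in Input (SD, n = 4; log2 0.50, edgeR adjusted p = 0.281), and Atx2 had 253 ± 10.2 CPM in RIP and 231 ± 19.5 CPM in Input (SD, n = 4; log2 0.13, edgeR adjusted p = 0.495). Both were higher in RIP in 3 of 4 lysates, and neither difference passed the threshold.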

How the data were processed

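Head RNA of 3 genotypes was sequenced from anti-FLAG RIP and Input of 4 lysates each, and the 8 control libraries are the main material. The deposited values are raw gene counts that the authors made with STAR 2.6.0b-1 and featureCounts 1.6.3 on BDGP6, per the submitters' processing notes, which also name DESeq2 2.11.40.2. The strand setting and gene annotation version of the counting are not given in the sources used here. Of 17753 genes in the tables, 17669 matched RefSeq on the same Release 6 assembly, which gave class, position and span.

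Counts were fitted with edgeR 4.0.16 in R 4.3.3 (filterByExpr, TMM, robust quasi-likelihood fit, lysate as a block, Benjamini-Hochberg adjustment over all genes tested, threshold 0.05). The filter keeps a gene expressed in either kind of library alone, which favours large differences in genes near the limit in the other kind. RIP and Input of a number come from 1 lysate per the labels, and their deviations from the group means correlated at 0.173 to 0.423 within each number over 2065 genes. The control fit used the control libraries only, each tagged genotype was fitted likewise, and the difference between genotypes came from a fit of all 24 libraries. Ratios per lysate used a prior count of 2. Class shares were tested with an exact permutation test over libraries. Alternatives were other scalings, no expression filter, no block, DESeq2 1.42.0, limma 3.58.1, thinning to the shallowest library, and leaving out each lysate. The tested genes held 97.6% to 98.6% of the counts of the control libraries, and PCR copies were not marked by molecular identifiers.

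The gene lists, the members and the named-gene rule were chosen with earlier results of these data known. Named genes were first the 12 highest and 12 lowest protein-coding and the 6 highest and 6 lowest noncoding nuclear-encoded genes. These were called, had 1 sign in all 4 lysates and averaged at least 20 CPM. Added without that filter, whether called or not, were all mitochondrially encoded genes tested and the 5 of most counts in RIP. The 2 of smallest p in each list of at least 5 tested members, and Nab2, Atx2 and elav, were added likewise. Other genes named as list members were chosen after their values were seen. Whether lysates of a genotype came from separate fly cultures is not stated, so p-values refer to these lysates only. The edgeR p-values and SE use dispersions moderated across genes, not each gene's own spread between lysates. For snoRNA:Or-CD2 the ratios per lysate had an SD of 0.50 (n = 4), beside a fitted SE of 0.14. limma on the ratios per lysate called 0 genes higher and 6 lower. Simulated control counts were drawn from the means and dispersions that edgeR had fitted, with 33 or 34 genes per size of change. Their rates therefore hold only where that model does, which the simulation cannot show for the real counts. On these simulated counts, 64.7% of genes with a log2 change of -1 and 90.9% of those with 1 were called, and 36.4% and 33.3% at -0.5 and 0.5.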

Additional observations from a re-analysis of the deposited data

Results flagged for a closer look

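The small RNA content of 1 Input library stood apart. In Input replicate 4 snoRNAs took 0.454% of counts, against 0.199% to 0.234% in the other 3 control Input libraries, snRNAs and scaRNAs took 0.847% against 0.420% to 0.470%, and antisense RNA took 0.216% against 0.0620% to 0.0643%.

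In single genes 1 lysate lay far from the other 3 in its log2 RIP-to-Input ratio. For snoRNA:Psi18S-110 lysate 1 stood at -1.57, against -2.20 to -2.11 in the others. For Shab lysate 3, which holds the shallowest library, stood at 0.20 against 0.73 to 0.81. For su(w[a]) lysate 2 stood at 2.19 against 0.70 to 0.85, and for lncRNA:CR31781 lysate 4 stood at 1.75 against 0.90 to 1.03. For the glycolytic gene Gapdh1 lysate 4 stood at 0.67 against -0.04 to 0.08. The gaps were narrow in absolute terms for AGO2 (lysate 4 at -0.45, others -0.51 to -0.50) and for the neuropeptide gene Nplp3 (lysate 1 at 0.11, others 0.25 to 0.27). Of 123 groups of 4 values examined, 10 held a value apart, against 6.15 that chance gives.

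The control RIP-to-Input log2 difference differed from the mean of the tagged genotypes for 11 genes (edgeR quasi-likelihood interaction). The values, control minus tagged, were -1.76 for snoRNA:Or-CD2, -1.36 for snoRNA:Psi18S-1086, -1.29 for snoRNA:Or-aca5, -1.29 for snoRNA:Psi18S-110, -1.07 for snoRNA:Psi18S-1854b, -0.70 for CG31221, -0.53 for CG42540, -0.39 for RpL37A, -0.34 for apolpp, 0.48 for Idgf4 and 0.52 for UQCR-C2.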

How the results depend on the processing

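The 449 control calls (197 higher, 252 lower) depended on pairing by lysate. With no replicate block 92 genes were higher and 114 lower, and 204 of these 206 were among the 449. DESeq2 with the lysate block gave 32 and 96, limma on ratios 0 and 6, and counts thinned to the shallowest library 51 and 96. Library size alone gave 1711 and 46. Leaving out 1 lysate gave 56 to 178 higher and 123 to 258 lower. For Nab2-FLAG, library size alone gave 1815 and 26, DESeq2 50 and 105, and leaving out 1 lysate 102 to 285 and 114 to 358. For Atx2-3xFLAG, no replicate block gave 126 and 145, library size alone 2161 and 32, DESeq2 45 and 84, and leaving out 1 lysate 62 to 243 and 88 to 263. The test between genotypes gave 0 and 1 with no replicate block, 1 higher by library size alone, 1 and 19 with no filter, 0 and 3 with DESeq2, and 0 to 2 and 4 to 11 with 1 lysate left out.

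As a share of nuclear-encoded counts the RIP minus Input difference was -0.274 percentage points for protein-coding RNA, -0.0711 for snRNA and -0.00223 for antisense RNA, all above 0 as a share of all counts. Leaving out 1 lysate gave -0.0154 to 0.110 points for snRNA and -0.0119 to 0.0604 for antisense RNA. A sign-flip test within lysates (the replicate block for shares) cannot reach 0.05 with 4 lysates. Of 1265 recomputed values of 103 named genes, 7 changed sign. With library size alone Cpr72Ec was at 0.20, Vha16-1 at 0.16, Obp56d at 0.082 and Yp1 at 0.087, and mt:ND3, not called, was at -0.049 with limma, -0.02 without lysate 2, -0.10 without lysate 4 and 0.16 without lysate 3. The causes were not tested. RIP replicate 3 was the shallowest library, at 220894 counts. The planned look at proteins with FLAG-like sequence was not run, since no protein table was used here.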
